A study of Mus musculus with 170 samples.

Results

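Interleukins and their receptors were described as 1 gene group in mouse lung and heart after exposure to condensed wildfire smoke. The group was chosen by symbol: 79 gene symbols begin with Il and a digit, and the 57 that reached at least 1 CPM (a count scaled to the total of its library) in at least 4 libraries were kept, of 21450 symbols measured. They comprise 18 ligands, 33 receptor chains, 5 inhibitors and Il4i1, an enzyme, and 78 probes report on them. Just inside the level threshold were Il10 and Il17rb, each with 4 libraries at 1 CPM or more. Just outside it were Il17d, with 3 such libraries and a highest value of 1.44 CPM, and Il12b, with 2 and a highest value of 2.36 CPM. In all 22 symbols were left out.

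Interleukins are secreted cytokines that act on cells carrying matching receptor chains, many of which are shared between several ligands. In lung tissue they are known for early inflammatory signalling: epithelial cells and macrophages release IL-1 family cytokines and IL-6 after injury or contact with microbes, and these act on endothelium, stroma and leukocytes. Some members work as brakes. Il1rn encodes the IL-1 receptor antagonist, Il1r2 a receptor that binds IL-1 without signalling, Il18bp a secreted protein that captures IL-18, Il22ra2 a secreted protein that captures IL-22, and Il13ra2 an IL-13 receptor regarded as a decoy.

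The animals were female CD-1 mice, an outbred stock, with no engineered allele named in the labels. Each smoke group received 50 uL of saline carrying smoke condensate particulate matter at 2 mg/mL by oropharyngeal aspiration, in which a drop placed at the back of the throat is inhaled. There were 10 smokes: eucalyptus, peat, pine, pine needles and red oak were each burnt in a smoldering and a flaming phase. Controls received saline alone, or lipopolysaccharide (LPS), a bacterial cell wall component used as positive control, whose dose the labels do not give. Each smoke and saline group held 6 animals and each LPS group 4. Separate animals gave the 4 h and the 24 h lungs, and hearts were taken at 24 h from the saline, red oak and peat animals (both phases), which gives 5 heart groups of 6.

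Expression was read as counts in 170 whole-tissue libraries. The labels name both TempO-Seq, an assay of designed probe pairs, and a QuantSeq kit, which primes at the tail of the mRNA, so what 1 count stands for is not settled; the numbered rows of a gene are called probes here. Totals ran from 4426180 to 8046021 counts per library. At 4 h each lung library detected 13436 to 15644 genes. At 24 h 6 of the 70 lung libraries stood apart with fewer than 13000: PineSmolder replicate 4, EucalyptusSmolder replicate 5, RedOakFlame replicate 6 (the lowest, 9886), PeatFlame replicate 3, PineFlame replicate 6 and EucalyptusFlame replicate 5. Calls that rest on them are given with and without them. The relations with neutrophil genes at 24 h are given with all libraries only. So are the values of single members compared between the phases at that time. Marker levels matched the tissue labels: a list of lung epithelial genes summed to at least 15800 CPM in every lung library and to at most 137.3 CPM in any heart library, and a list of heart muscle genes to at least 24300 CPM in every heart and at most 1590 CPM in any lung. In whole tissue, fewer cells of a type and less RNA per cell cannot be told apart.

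In lungs of saline animals at 4 h, the ligands with the highest mean CPM were Il34 (290), Il33 (69.6), Il18 (52.3), Il16 (19) and Il17b (13.9). The highest receptor chains were Il6st (537), Il18r1 (258), Il4ra (159), Il13ra1 (110) and Il1rl2 (78.5). Il34 is a ligand of the CSF-1 receptor, Il33 a nuclear alarmin, and Il6st the signalling chain gp130 that IL-6, IL-11 and related cytokines share. These CPM values are not scaled to probe efficiency or gene length, so they do not rank the abundance of one gene's mRNA against another's. No member passed the test for a difference between the saline lungs at 24 h and at 4 h (0 of 52 tested, edgeR quasi-likelihood test with Benjamini-Hochberg adjustment over all genes, beside 0% of all genes). In that comparison 2 members had an unadjusted p under 0.05.

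LPS raised a large share of the group in the lung. A member is called changed where its adjusted p is under 0.05. At 4 h 18 of 52 tested members (34.6%) were higher and 0 lower, against 5.48% of all genes higher. At 24 h 20 of 52 (38.5%) were higher and 0 lower, against 7.58% of all genes higher. The median log2 difference over the tested members was 0.92 at 4 h, with 37 of 52 above 0, and 0.81 at 24 h, again with 37 above 0. Over all genes the medians were -0.04 and -0.12. By role, 6 of 16 tested ligands, 7 of 31 receptor chains, 4 of 4 tested inhibitors and Il4i1 rose at 4 h. At 24 h the counts were 7 ligands, 9 receptor chains, 3 inhibitors and Il4i1. The 5 kept members that were too low to be tested in lung were Il4, Il7r, Il10, Il17rb and Il22ra2. Of the 52, 3 (Il13ra2, Il23a and Il24) reached the level for testing only through the LPS lungs, so their LPS differences support nothing. Among the other 49, 16 (32.7%) rose at 4 h and 18 (36.7%) at 24 h, beside 5.33% and 7.43% of the 14397 genes that reached that level without the LPS lungs.

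The results turn on Il6, the acute phase cytokine, Il1b, the cytokine that inflammasomes process, and Il1r2, the IL-1 decoy receptor. Their start regions are shown so that the genes that rose together can be compared in sequence. Each line gives the 250 bases before the start site in RefSeq (GRCm38.p6), 5′ to 3′ on the gene's own strand. Il6 lies on the plus strand (chr5:30012864-30013113), Il1b on the minus strand (chr2:129371140-129371389) and Il1r2 on the plus strand (chr1:40085843-40086092). Capitals mark matches to GGGANNTTCC, a form of the NF-kB site, and to TGANTCA, the AP-1 site, searched on both strands; the patterns do not overlap each other here.
Il6: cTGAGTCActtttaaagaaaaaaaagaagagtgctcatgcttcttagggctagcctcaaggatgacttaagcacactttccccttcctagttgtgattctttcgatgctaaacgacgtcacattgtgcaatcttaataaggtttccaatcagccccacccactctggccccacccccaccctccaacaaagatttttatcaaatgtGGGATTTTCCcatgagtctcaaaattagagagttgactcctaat
Il1b: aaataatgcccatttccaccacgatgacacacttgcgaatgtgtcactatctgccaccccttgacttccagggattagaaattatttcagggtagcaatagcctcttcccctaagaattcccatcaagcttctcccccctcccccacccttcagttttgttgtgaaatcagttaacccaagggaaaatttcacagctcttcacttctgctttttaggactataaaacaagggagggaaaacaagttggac
Il1r2: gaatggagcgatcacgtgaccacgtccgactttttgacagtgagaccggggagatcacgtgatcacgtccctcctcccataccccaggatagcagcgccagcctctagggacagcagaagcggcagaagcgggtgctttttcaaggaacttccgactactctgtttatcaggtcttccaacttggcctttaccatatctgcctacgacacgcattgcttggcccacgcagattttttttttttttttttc
Only the Il6 stretch of these 3 holds either pattern, and it holds both, GGGATTTTCC starting 44 bases and TGAGTCA starting 249 bases before the start site. Of the 57 members, 42 were found in the promoter table. In windows of 300 bases (250 before to 50 after the start), GGGANNTTCC occurred in 3 of these 42 (7.14%; Il6, Il16 and Il22ra1) and in 1.63% of 27025 symbols. TGANTCA occurred in 11 of 42 (26.2%) and in 8.97% of all symbols. Of the members called under LPS at 4 h, 14 were matched, with 1 holding the first pattern and 5 the second. Of those tested and not called, 25 were matched, with 2 and 5. A match is a description of letters only.

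Il6 at 4 h measured 0.382, 1.71, 1.09, 2.7, 2.74 and 7.31 CPM in the 6 saline lungs and 76.8, 45.8, 95.5 and 88.1 CPM in the 4 LPS lungs. The lowest LPS lung stood above the highest saline lung, and the log2 difference was 4.83 (SE 0.81, adjusted p = 2.26e-06). At 24 h saline lungs lay between 0 and 1.96 CPM (median 0.746) and LPS lungs at 24.6, 121.7, 33.2 and 46.7 CPM, again without overlap, with a log2 difference of 6.16 (SE 0.88, adjusted p = 1.56e-08).

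Il1b at 4 h was 1.53 to 10.9 CPM in saline lungs (median 4.16) and 87.5, 72.9, 241 and 328 CPM in LPS lungs. The groups did not overlap, LPS replicates 3 and 4 were the highest, and the log2 difference was 5.23 (SE 0.90, adjusted p = 4.28e-06). At 24 h the saline range was 0 to 3.83 CPM and the LPS values were 49.3, 61, 35.3 and 38.9 CPM, a log2 difference of 5.13 (SE 0.93, adjusted p = 8.65e-06). Il1a, the alarmin that uses the same receptor, rose from 0.815 ± 0.51 (SD, n = 6) to 15.9 ± 11.5 CPM (SD, n = 4) at 4 h, log2 4.24, and by log2 4.23 at 24 h. Il1f9 encodes IL-36 gamma, an epithelial IL-1 family cytokine. Its saline values at 4 h ran from 1.15 to 13.7 CPM and its LPS values were 162.1, 137.8, 208.9 and 264.6 CPM (log2 4.99, SE 0.68, adjusted p = 4.61e-09), and both of its probes rose. At 24 h Il1f9 was 137.2 to 277.4 CPM under LPS and 2.39 to 12.5 CPM in saline (log2 5.21, adjusted p = 8.84e-10).

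The remaining ligands that rose were low in saline. Il23a, the p19 subunit of IL-23, had 1 count in all 6 saline lungs together and 59 in the 4 LPS lungs at 4 h, a depth-scaled ratio of 90.6 (95% interval 15.6 to 3640, counting error only). At 24 h it had 36 counts against 2, a ratio of 35.3 (9.09 to 303). Il23a reached the level for testing only through the LPS lungs, so these ratios are a description. Il27, the p28 subunit of IL-27, rose from 0.45 ± 0.426 to 4.43 ± 1.81 CPM at 4 h (SD, n = 6 and 4; adjusted p = 0.0115) and was 12.9, 50.5, 13.9 and 18.8 CPM under LPS at 24 h, where replicate 2 stood above the others. Il24, an IL-10 family cytokine, had 6 counts against 3 at 4 h and was not called. At 24 h it had 64 counts against 1, and replicate 2 was again the highest, at 9.73 CPM. Il10, the anti-inflammatory cytokine, was too low to enter the fit and had 35 counts in the LPS lungs against 2 in saline at 24 h. LPS lungs made up 3 of the 4 libraries in which Il10 reached 1 CPM and 4 of the 7 for Il24, so both are in the group only through the LPS lungs, and their LPS values are a description. Il33 was not called and measured 26.3 ± 20.7 CPM in saline and 11.9 ± 5.37 CPM under LPS at 24 h (SD, n = 6 and 4).

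All 4 tested inhibitors were called higher at 4 h, but Il13ra2 was testable only through the LPS lungs. Il1r2 measured 0, 0.623, 1.4, 0.477, 0 and 0.777 CPM in saline and 12.5, 27.3, 55.8 and 46.5 CPM under LPS, a log2 difference of 5.94 (SE 0.99, adjusted p = 1.97e-06). Every LPS lung was above every saline lung, and the same held at 24 h, where LPS lungs were at 19.8, 41.7, 42.6 and 16 CPM and saline lungs at or below 1.05 CPM (log2 5.98, adjusted p = 1.35e-06). Il1rn was at 1.34 to 12.6 CPM in saline and 48, 67, 205 and 339 CPM under LPS at 4 h (log2 4.46, adjusted p = 2.46e-05). As for Il1b, LPS replicates 3 and 4 were the highest. At 24 h Il1rn reached 62 to 351 CPM (log2 5.92, adjusted p = 7.28e-08).

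Il18bp, which captures IL-18, rose from 3.61 ± 1.61 to 15 ± 6.15 CPM at 4 h (SD, n = 6 and 4; log2 2.05, adjusted p = 4.74e-05) and to 27.7 ± 6.53 CPM at 24 h (log2 3.32, adjusted p = 5.14e-11). Il18 itself was not called at either time. Il13ra2, testable only through the LPS lungs, went from 0.157 ± 0.244 to 2.08 ± 0.693 CPM at 4 h, which is a description. It was not called at 24 h. Il4i1, a secreted amino acid oxidase that immune cells make, had the smallest p of the group at both times. Its saline values at 4 h were 13.9 to 52.2 CPM and its LPS values 1810, 651, 911 and 689 CPM (log2 5.21, SE 0.54, adjusted p = 1.04e-13); at 24 h LPS values were 277 to 608 CPM (log2 4.63, SE 0.53, adjusted p = 4.14e-12).

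**Figure D1:**
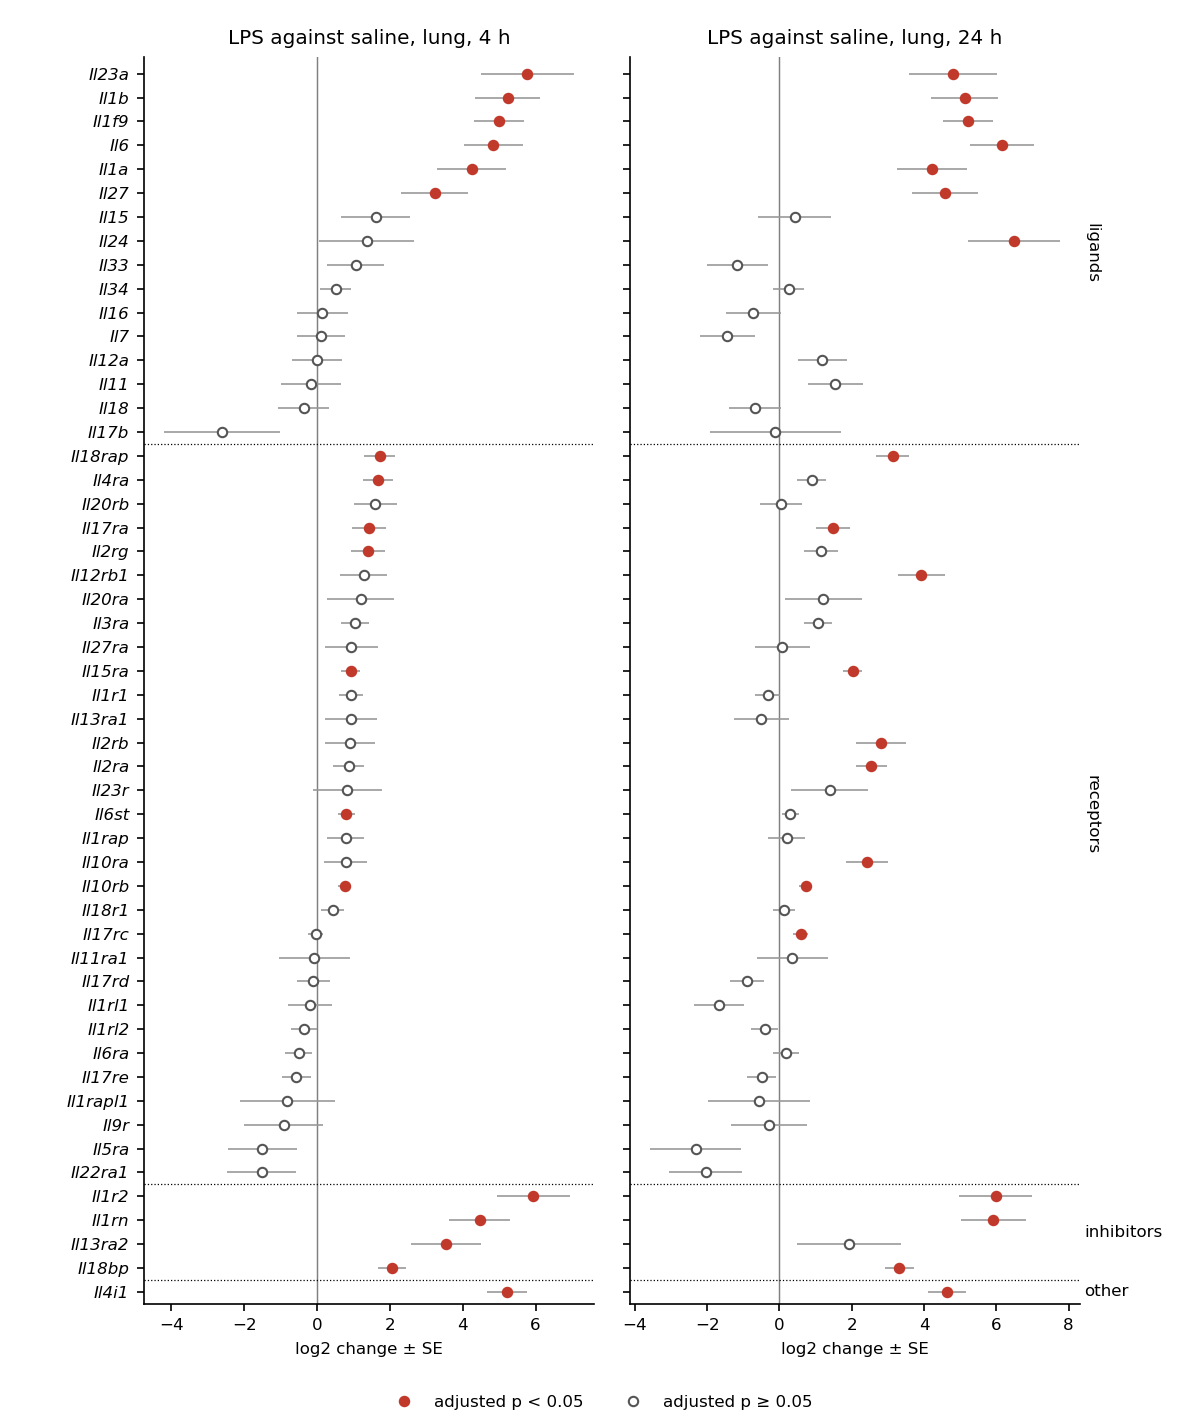
Log2 difference between LPS and saline lungs at 4 h and 24 h for the 52 tested members, by role, with 1 standard error either side (4 LPS and 6 saline animals per time). Filled points are the members called, 18 at 4 h and 20 at 24 h, and all of them lie to the right of 0.

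The receptor chains that rose did so by smaller steps than most of the ligands. At 4 h the called chains were Il10rb, Il4ra, Il18rap, Il15ra, Il6st, Il17ra and Il2rg, with log2 differences from 0.76 to 1.72. Il18rap, the accessory chain of the IL-18 receptor, was at 10.1 to 21.5 CPM in saline and 40.6, 67.8, 52.2 and 45.5 CPM under LPS. Il6st was at 458 to 642 CPM in saline and 742, 978, 1040 and 989 CPM under LPS. Both were without overlap between the groups, as was Il10rb, a chain shared by receptors of the IL-10 family (63.5 to 86.1 CPM in saline, 143, 139.1, 125.8 and 113.5 CPM under LPS).

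Il4ra, Il15ra and Il2rg overlapped with saline in 1 LPS lung each. For each of the 3 genes that lung was LPS replicate 1, at 226, 25.3 and 20.3 CPM. The 3 probes of Il4ra, the chain shared by the IL-4 and IL-13 receptors, did not move alike: tested alone they gave log2 differences of 0.01, 2.30 and 1.63, of which the second and the last were called. Il2rg, the common gamma chain, lost its call in 7 of the 10 fits without 1 LPS or saline lung, with adjusted p from 0.0514 to 0.204 (LPS replicate 2, 3 or 4, saline replicate 1, 2, 3 or 4).

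At 24 h the called receptor chains were Il15ra, Il18rap, Il12rb1, Il2ra, Il10ra, Il2rb, Il10rb, Il17ra and Il17rc. Il15ra, which presents IL-15, was at 13 to 27.1 CPM in saline and 54.6, 110, 76 and 70.4 CPM under LPS (log2 2.03, SE 0.26, adjusted p = 2.26e-10). Il12rb1, the chain shared by the IL-12 and IL-23 receptors, was at 0.442 to 2.99 CPM in saline and 14.7, 23.1, 22.4 and 15.1 CPM under LPS (log2 3.92, adjusted p = 9.67e-07). Both stood clear of saline in every LPS lung.

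Il2ra, the high-affinity chain of the IL-2 receptor, averaged 62.7 ± 38.7 CPM under LPS (SD, n = 4), with its lowest lung at 23.2 CPM, against 5.87 to 19.5 CPM in saline (log2 2.54, adjusted p = 1.77e-06). Il2rb, shared by the IL-2 and IL-15 receptors, measured 35.4, 93.2, 57.2 and 37.1 CPM against 2.56 to 22.5 CPM (log2 2.82, adjusted p = 0.00148). Replicate 2 was the highest LPS lung for both. Il10rb, Il10ra, Il17ra and Il17rc lost their calls without that lung, with adjusted p of 0.108, 0.0684, 0.0615 and 0.129. Il17rc, the partner of Il17ra for IL-17A, was the weakest call (log2 0.59, adjusted p = 0.0465) and was lost in 7 of the 10 fits without 1 lung (LPS replicate 1, 2 or 4, saline replicate 2, 4, 5 or 6). Il17ra was lost without LPS replicate 3 (adjusted p = 0.0788) or saline replicate 2 (0.0608) as well. At 4 h the calls of Il15ra, Il17ra and Il2rg ended without LPS replicate 2, with adjusted p of 0.084, 0.095 and 0.06, and that of Il17ra also without LPS replicate 1 or saline replicate 1 or 5 (0.0583 to 0.0943).

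Of the called members, 14 were called at both times: Il1a, Il1b, Il1f9, Il6, Il23a, Il27, Il1rn, Il1r2, Il18bp, Il4i1, Il10rb, Il15ra, Il17ra and Il18rap. The 4 h list added Il13ra2, Il2rg, Il4ra and Il6st, and the 24 h list Il10ra, Il12rb1, Il17rc, Il24, Il2ra and Il2rb. A call at 1 time alone does not show a difference between times, and the difference itself was tested. The LPS effect at 24 h minus that at 4 h was called for 0 of 52 members by edgeR's quasi-likelihood test, with 8 at an unadjusted p under 0.05 and 0 by DESeq2, against 0.581% of all genes. The smallest p values belonged to Il15ra (log2 1.09 more at 24 h, adjusted p = 0.199), Il12rb1 (2.63 more, adjusted p = 0.245) and Il2ra (1.67 more, adjusted p = 0.278). Il1r1, the signalling receptor of IL-1, was log2 -1.26 at 24 h relative to 4 h (adjusted p = 0.315). Without the 6 libraries of few detected genes this value was -1.25 with an adjusted p of 0.00124, the 1 call in that fit. At 4 h Il1r1 measured 48.4 to 66.6 CPM in saline and 91.1, 142.6, 111.7 and 95.6 CPM under LPS, no overlap, with an adjusted p of 0.0601.

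By family, the IL-1 group, the largest, had 7 of 15 members higher at 4 h and the same 7 at 24 h, beside 5.48% and 7.58% of all genes (Il1a, Il1b, Il1f9, Il1rn, Il1r2, Il18bp and Il18rap). The 7 include 3 agonist ligands, 3 inhibitors and 1 receptor chain. Beside the same shares of all genes, the common gamma genes, grouped with the IL-13 receptors Il13ra1 and Il13ra2, had 4 of 10 at 4 h and 3 at 24 h. The IL-6 family had 2 of 5 and 1, and the IL-10 family 1 of 6 and 3. The IL-17 family had 1 of 5 and 2, and the IL-12 family 1 of 4 and 2. Il13ra2, Il24 (IL-10 family) and Il23a (IL-12 family), counted here, were testable only through the LPS lungs. Families were not tested against each other. Il1rl1, the IL-33 receptor ST2, named after its values were seen as the lower member with the smallest p, was at 3.3 ± 2.89 CPM in saline and 1.05 ± 0.728 CPM under LPS at 24 h (SD, n = 6 and 4; log2 -1.67, adjusted p = 0.111). In the RefSeq gene order of GRCm38.p6, Il1r2, Il1r1, Il1rl2, Il1rl1, Il18r1 and Il18rap follow each other on chromosome 1 with no other protein-coding gene between them. The members at the outer ends, Il1r2 and Il18rap, were called at both times and the 4 between them at neither. On chromosome 2, Il1a and Il1b are neighbours and were both called at both times. Il2ra and Il15ra are neighbours too, with Il15ra called at both times and Il2ra at 24 h.

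Markers of other cell types moved with the LPS lungs. A list of 13 neutrophil genes summed to 4710 to 13500 CPM under LPS and 347 to 1400 CPM in saline at 4 h, and to 3360 to 5580 CPM against 222 to 414 CPM at 24 h. Of the 13, 11 rose at each time, with median log2 differences of 3.43 and 3.69. Of 5 tested monocyte genes, 3 rose at 4 h and 4 at 24 h, of 5 natural killer cell genes 1 rose at 24 h, and of 9 tested T cell genes 0 were called. Of 6 B cell genes, 2 fell at 4 h. Neutrophils are known to carry much Il1b, Il1rn and Il1r2 mRNA, and the part of these cell counts in the LPS differences was not tested.

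The rest of the pathway was followed through a list of 40 genes for non-Il receptor chains, kinases, adaptors and feedback inhibitors, of which 39 were tested in lung. At 4 h 15 of 39 rose, beside 5.48% of all genes, and 0 fell (median log2 0.93). At 24 h 18 rose, beside 7.58%, and 1, Cntfr (-1.72), fell (median 1.12). Socs3, the feedback inhibitor of gp130 signalling, rose from 29.8 to 210 CPM at 4 h (log2 2.82) and from 38.4 to 351 CPM at 24 h (log2 3.2). Stat2, a transcription factor of interferon signalling, rose by log2 2.28 and 2.73, and Irak2, a kinase downstream of the IL-1 receptors, by log2 1.09 and 1.44. Ebi3, the partner subunit of Il27, rose by log2 3.29 and 3.05, and Csf2rb, the beta chain used by the IL-3 and IL-5 receptors, by log2 1.61 and 2.83. Il3ra and Il5ra, which pair with Csf2rb, were not called. Pycard, the adaptor of inflammasomes, rose from 77.6 to 450 CPM at 24 h (log2 2.55).

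The smokes moved few members. The mean of the 10 smokes against saline gave 0 calls of 52 at 4 h, beside 0% of all genes, and 0 of 52 at 24 h, beside 0.00692% of all genes, by edgeR's quasi-likelihood test and by DESeq2. Members with an unadjusted p under 0.05 numbered 3 at 4 h (Il17b, Il18 and Il1f9) and 4 at 24 h. Il1f9, the gene with one of the largest LPS differences, averaged 12.7 ± 9.37 CPM over 60 smoke lungs at 4 h and 6.04 ± 4.83 CPM in saline (SD, n = 6; log2 1.06, adjusted p = 0.811). Il18 averaged 26.8 ± 17 CPM over the smoke lungs and 52.3 ± 22.9 CPM in saline (log2 -1.05, adjusted p = 0.744). Neither difference passed the test.

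Taken one smoke at a time, the members gave 520 pairs of gene and smoke at each time. At 4 h 0 of 520 pairs were called, beside 0.0456% of all pairs over all genes, with 29 at an unadjusted p under 0.05 and 1 call by DESeq2. At 24 h 2 of 520 were called, beside 0.187%, with 38 unadjusted. All 10 comparisons at a time share the 6 saline lungs.

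The nearest to a response at 4 h was in peat flame lungs. Il6 there measured 4.28, 21.8, 20, 29.7, 6.87 and 6.66 CPM, so that 3 of the 6 lungs lay above the highest saline lung (7.31 CPM), with a log2 difference of 2.47 (SE 0.72, adjusted p = 0.165). The lowest LPS lung, at 45.8 CPM, was above all of them. Il6 values above the saline range were not confined to peat flame. They occurred in 13 of the 60 smoke lungs, among them 2 of 6 after red oak smolder and 2 of 6 after red oak flame. Il1r2 in peat flame lungs had a log2 difference of 3.21 (SE 0.89, adjusted p = 0.118). That difference rested on replicate 3, at 23.5 CPM when the other 5 were at or below 2.46 CPM. Il1f9 had a log2 difference of 1.96 (SE 0.58, adjusted p = 0.182), with replicate 3 at 71.8 CPM and the next at 22.7 CPM.

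Without replicate 3 the peat flame differences of Il1r2 and Il1f9 were log2 1.59 and 1.21. That lung also had the highest neutrophil sum of its group, 3450 CPM against 427 to 1390 CPM in the other 5. Its part in the result was not tested. In the edgeR fit of all lungs 0 of 52 members were called for peat flame (7 at an unadjusted p under 0.05), beside 0.29% of all genes higher. DESeq2 called Il1r2 (adjusted p = 0.0337). The edgeR fit of the 4 h lungs alone called Il1f9 (adjusted p = 0.0207) and Il1r1 (adjusted p = 0.0334), the latter named after its values were seen. The shares of all genes called by these alternatives are not reported here. Without the 6 libraries of few detected genes, none of which is a 4 h lung, Il1f9 (adjusted p = 0.0382) and Il1r2 (adjusted p = 0.0408) were called, beside 0.702% of all genes.

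Red oak flame at 24 h gave both calls of that time, 2 of 52 beside 1.75% of all genes in either direction. Il2rb had a log2 difference of 2.58 (SE 0.65, adjusted p = 0.0154), in which replicate 6 stood at 297 CPM and the other 5 lungs between 1.75 and 9.03 CPM. Without that library the difference was -0.53 (adjusted p = 0.79), and without saline replicate 3, 4 or 6 the adjusted p was 0.0504 to 0.0685. Replicate 6 is the library with the fewest detected genes, and some of the cell type lists were low in it, but not all. Its B cell genes summed to 190.7 CPM, within the 133.5 to 218.9 CPM of the other 5 lungs. Its natural killer genes summed to 0.72 CPM, and its monocyte genes to 7.92 CPM against 79.2 to 130.4 CPM in the other 5 lungs. The source of its Il2rb value was not tested. Il20rb, a receptor chain of the IL-20 group, was lower in red oak flame, at 0.795 ± 0.744 CPM against 4.44 ± 1.98 CPM in saline (SD, n = 6 each; log2 -2.22, adjusted p = 0.0203). All 6 lungs lay below every saline lung (1.77 to 6.75 CPM). Without replicate 6 the value was -2.09 with an adjusted p of 0.742, and without saline replicate 3 it was -2.18 with 0.0528.

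**Figure D2:**
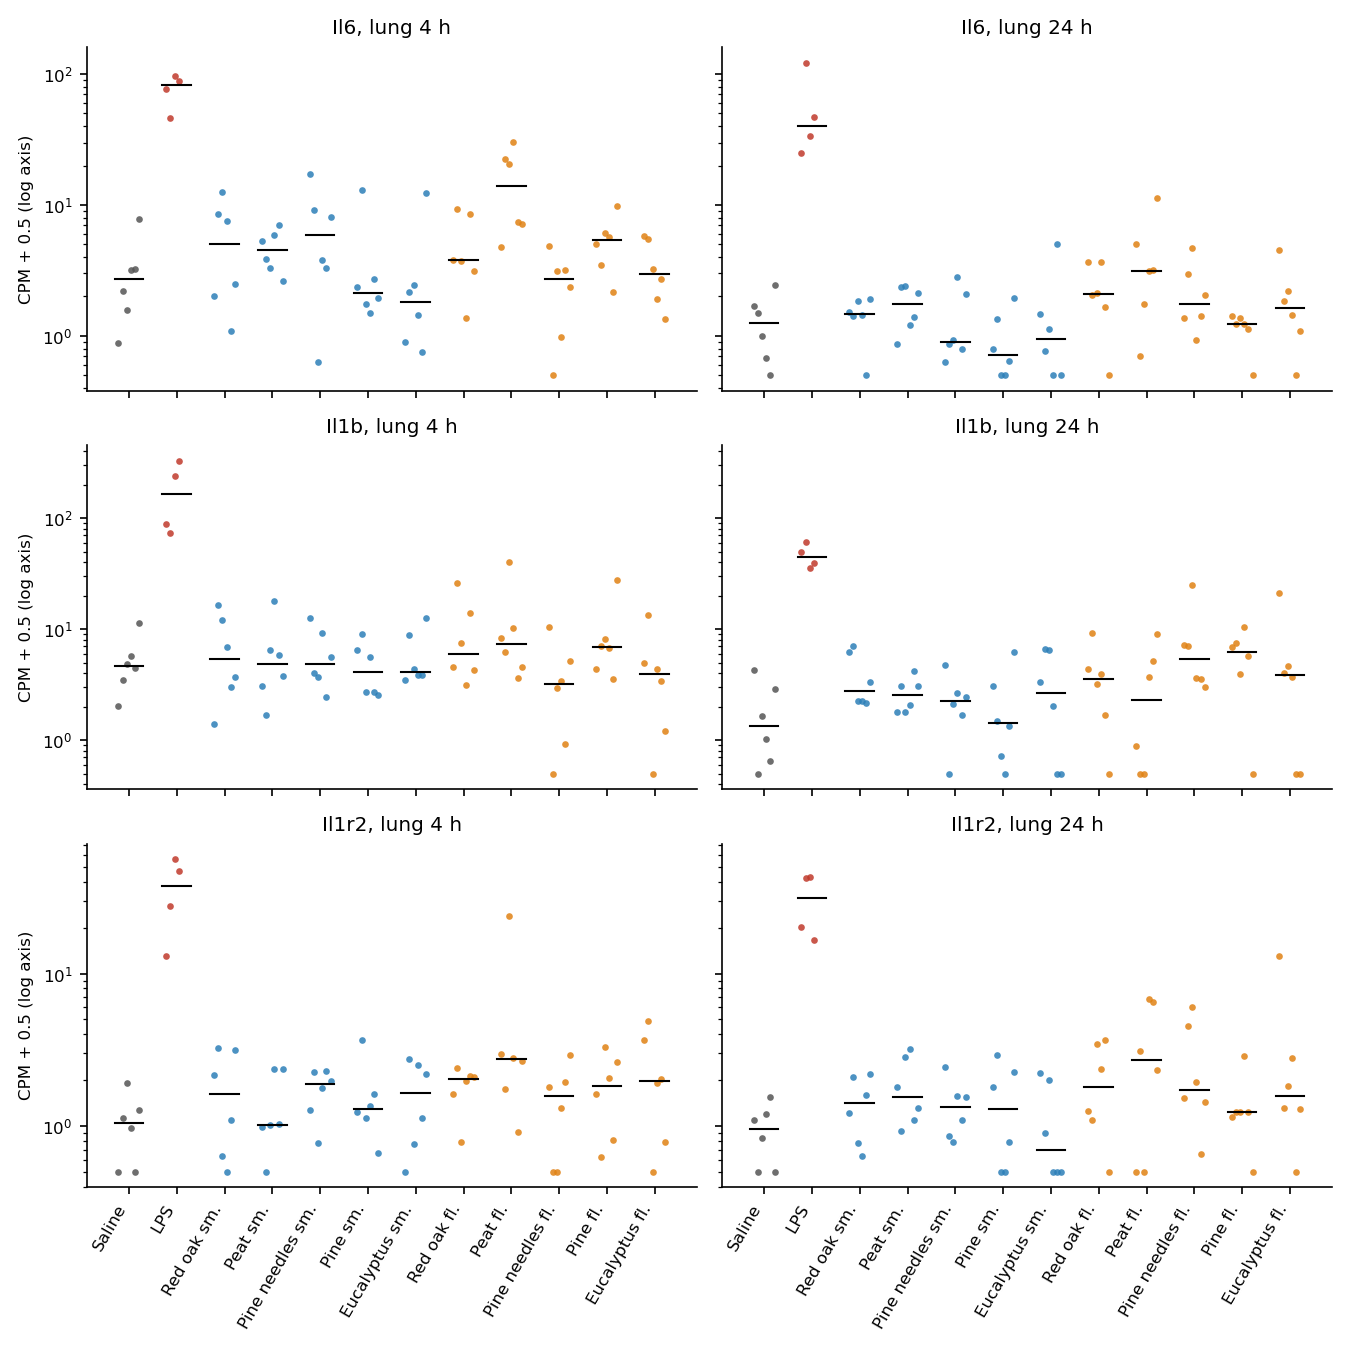
Il6, Il1b and Il1r2 in every lung library by treatment at 4 h and 24 h, as CPM + 0.5 on a log axis, with 1 point per animal and a bar at the group median (sm., smoldering; fl., flaming). LPS lungs sit above every saline lung for all 3 genes at both times. For Il6 at 4 h, 13 of the 60 smoke lungs lie above the saline range, 3 of them peat flame and more than 1 in some other groups.

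The combustion phase was compared over all fuels, 30 flaming against 30 smoldering lungs at each time. At 4 h Il10rb and Il23a were higher after flaming smoke, 2 of 52 members (3.85%) against 1.72% of all genes higher, with 9 members at an unadjusted p under 0.05. Il10rb was at 68.5 to 146 CPM (median 91.6) in flaming and 55.3 to 95.8 CPM (median 69.1) in smoldering lungs, with a log2 difference of 0.40 (SE 0.08, adjusted p = 8.11e-04). The ranges overlapped, and 11 of 30 flaming lungs lay above every smoldering lung. Saline lungs had a median of 79 CPM, between those of the phases.

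By fuel the Il10rb difference was log2 0.70 for red oak, 0.48 for peat, 0.31 for pine needles, 0.25 for pine and 0.24 for eucalyptus, none called alone. Red oak flame lungs (85.2 CPM and above, median 103.8) did not overlap with red oak smolder lungs (55.3 to 69.7 CPM). Whether the phase difference varied among fuels was tested as an interaction, and at 4 h 0 members were called beside 0.0207% of all genes (Il10rb, unadjusted p = 0.264). At 24 h the Il10rb difference was between -0.25 and 0.22 in each fuel, with no call.

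Il23a was near the detection limit in all smoke lungs. Its counts summed over 6 lungs were 13 after flaming eucalyptus, 10 after peat, 9 after pine needles, 6 after pine and 5 after red oak. Smoldering gave 4 for eucalyptus, 5 for peat and 0 for the other fuels. Saline lungs had 1 count. The mean was 0.202 ± 0.287 CPM for flaming and 0.0397 ± 0.12 CPM for smoldering lungs (SD, n = 30 each; adjusted p = 0.00961), far below the 2.49 ± 1.21 CPM of LPS lungs. Without the pine needle lungs, 5 of which ran on the other plate, the adjusted p was 0.125. DESeq2 gave Il23a no adjusted p (unadjusted p = 0.00525), and Il23a was too low to enter the fit of the 4 h lungs alone. That fit called Il10rb (0.38) and Il9r (1.88) higher after flaming smoke and Il13ra1 (-0.70), Il7 (-0.58), Il18r1 (-0.35) and Il1rap (-0.35) lower, so the calls were not all increases there (Il9r, Il13ra1, Il7 and Il1rap are named after their values were seen).

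At 24 h 0 of 52 members differed between the phases by edgeR's quasi-likelihood test, with 7 at an unadjusted p under 0.05 and 0 by DESeq2, beside 0.111% of all genes. Il18r1 had the smallest p, at 215 ± 77.7 CPM after flaming and 284 ± 74.3 CPM after smoldering (SD, n = 30 each; log2 -0.39, adjusted p = 0.363). Il1b averaged 4.89 ± 5.58 CPM after flaming and 2.38 ± 1.96 CPM after smoldering (SD, n = 30 each; log2 1.09, adjusted p = 0.38), and Il6 1.86 ± 2.12 and 0.91 ± 0.954 CPM (log2 0.99, adjusted p = 0.523). These values include the libraries of few detected genes, which lie in both phases.

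Of the 40 other pathway genes, 4 of 39 tested were higher after flaming smoke at 4 h, beside 1.72% of all genes. These were Cish (log2 0.66), Crlf2 (0.72), Socs3 (0.69) and Csf2rb (0.41). Cish and Socs3 encode feedback inhibitors induced by cytokine signalling, and Crlf2 the receptor chain of TSLP.

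Any difference among the 10 smokes was tested as well. At 4 h Il10rb and Il24 were called, 2 of 52 beside 0.609% of all genes. The Il24 call (adjusted p = 0.0447) was lost with DESeq2's test (0.85) or size factors (0.0554), with each probe alone (0.0566), with every gene of at least 1 count (0.0961) and with no plate term (0.116), and Il24 was too low to enter the fit of that time alone. At 24 h Il2rb, Il17b, Il20rb, Il34 and Il2ra were called, 5 of 52 (9.62%) beside 18% of all genes. The member share was below the share over all genes. Without the libraries of few detected genes the 24 h calls were Il17b, Il34, Il6, Il20rb and Il1f9, again 5, beside 10.4% of all genes. Il17b, an IL-17 family cytokine, was patchy in all groups, with saline lungs from 0.752 to 34.1 CPM and RedOakFlame replicate 6 at 756 CPM.

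The phase difference also varied with fuel at 24 h for 5 members, Il2rb, Il17b, Il34, Il1rapl1 and Il2ra, beside 13.1% of all genes. Without the libraries of few detected genes 0 members were called and 0.0139% of all genes.

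**Figure D3:**
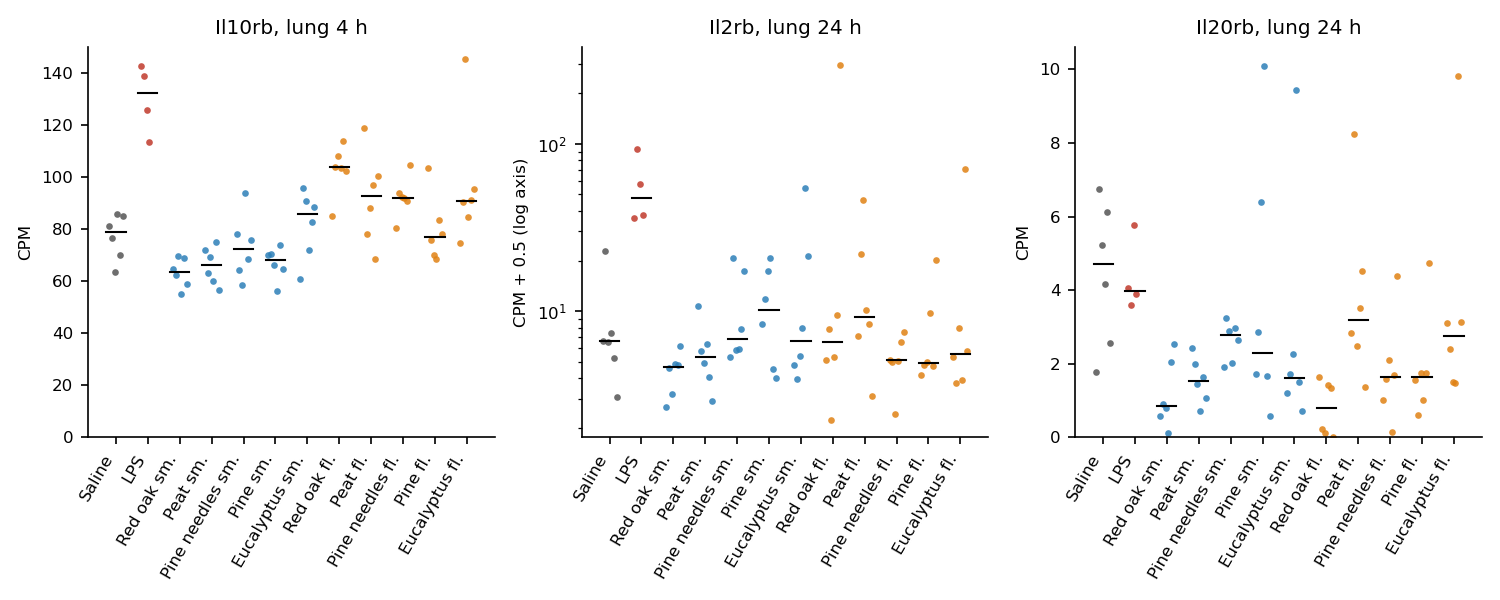
Il10rb at 4 h (CPM), and Il2rb (CPM + 0.5, log axis) and Il20rb (CPM) at 24 h in each lung library by treatment, with 1 point per animal and a bar at the group median (sm., smoldering; fl., flaming). Il10rb medians are 63.5 to 85.8 CPM after smoldering and 77 to 103.8 CPM after flaming, 1 red oak flame lung reaches 297 CPM of Il2rb, and all red oak flame lungs are below the saline range of Il20rb.

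Across the 60 smoke lungs of each time, the levels of the 3 marker genes moved with the summed level of the 13 neutrophil genes, both on a log2(CPM + 0.5) scale. Il1b had the closest relation, with Pearson's r = 0.80 and Spearman's rho = 0.75 at 4 h and r = 0.76 and rho = 0.79 at 24 h (n = 60 each; permutation p = 1e-05 for all 4, the smallest that the resamples can give; adjusted p = 3e-05 over 6 relations). Without the 2 lungs farthest from the median neutrophil sum, r was 0.75 at both times. Centred on group means, r was 0.79 at 4 h and 0.84 at 24 h. The 6 libraries of few detected genes at 24 h each had 0 Il1b counts and neutrophil sums of 77 to 207.5 CPM. The 24 h relations of the 3 genes were not computed without these libraries, and their part in r was not tested.

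Il6 gave r = 0.51 and rho = 0.47 at 4 h and r = 0.53 and rho = 0.42 at 24 h (permutation p of r = 3e-05 at both times, of rho = 0.00014 and 0.00108; adjusted p of r = 3.6e-05 and of rho = 0.00021 and 0.0013). Without the 2 farthest lungs r was 0.45 and 0.44. Il1r2 gave r = 0.51 and rho = 0.39 at 4 h (permutation p = 9e-05 and 0.00217, unchanged by adjustment), and r = 0.58 and rho = 0.52 at 24 h (permutation p of r under 3e-05 and of rho = 3e-05, adjusted p = 3.6e-05 and 6e-05). Without the 2 farthest lungs its r was 0.38 and 0.57.

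Within plates at 24 h the Il1b relation was r = 0.79 on plate 1 (n = 15) and 0.76 on plate 2 (n = 45), that of Il1r2 0.66 and 0.58, and that of Il6 0.34 and 0.58. At 4 h plate 1 gave r = 0.80 for Il1b, 0.54 for Il6 and 0.52 for Il1r2 (n = 55), and plate 2 held 5 lungs, too few for a value. The relations are between levels in the same libraries, so both axes share each library's scaling.

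**Figure D4:**
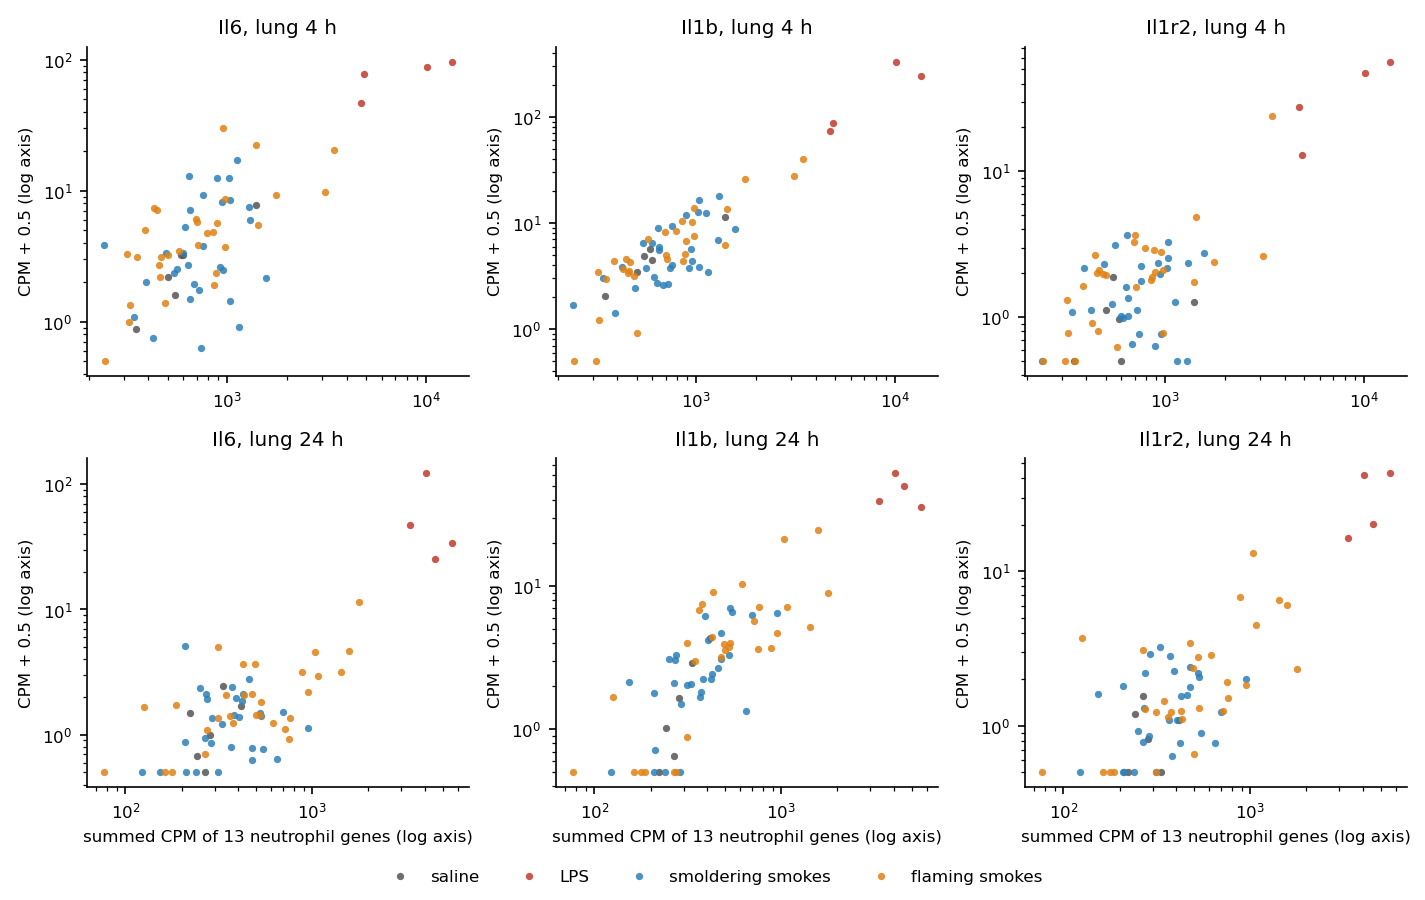
Il6, Il1b and Il1r2 (CPM + 0.5) against the summed CPM of 13 neutrophil genes, both on log axes, at 4 h and 24 h, with 1 point per lung library and saline, LPS, smoldering and flaming lungs in separate colours. LPS lungs lie at the upper right, and across the 60 smoke lungs Il1b follows the sum most closely (r = 0.80 and 0.76).

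In the heart, 23 of the 57 members were high enough to be tested. In saline hearts the ligands with the highest mean CPM were Il33 (16.4), Il34 (15.7) and Il16 (14.7), and the highest receptor chains Il6st (402), Il13ra1 (276), Il10rb (119.2), Il15ra (42.6) and Il4ra (36.7). Il6 was near its floor in most hearts, but saline replicate 2 read 11.3 CPM where the other saline hearts read 0.356 to 1.08 CPM. It was not tested in heart, and no exposed heart exceeded 2.19 CPM.

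Members moved in the hearts of 2 of the 4 smokes, 5 of 92 pairs of gene and smoke beside 4.09% of all pairs, a share near that background, with 17 at an unadjusted p under 0.05. All 5 calls were increases in receptor chains, which made up 15 of the 23 members tested in heart, beside 7 ligands and 1 inhibitor. Il1rl2 and Il1rap, the binding chain and the accessory chain of the IL-36 receptor, were called in both smokes. Red oak flame gave 3 of 23 (beside 5.33% of all genes higher), and peat smolder 2 of 23 (beside 2.39%). The 4 comparisons share the 6 saline hearts.

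Il1rl2 measured 7.84, 10.1, 8.87, 8.34, 8.25 and 7.39 CPM in saline hearts, 15.3, 11.4, 11.9, 22, 16.2 and 11 CPM in red oak flame hearts and 12.5, 15.9, 12.6, 11.4, 13.8 and 12.3 CPM in peat smolder hearts. All 12 exposed hearts lay above every saline heart. The log2 differences were 0.78 (SE 0.17, adjusted p = 0.00412) and 0.63 (SE 0.17, adjusted p = 0.0312). In the other 2 smokes Il1rl2 was at 11.4 ± 2.15 CPM (red oak smolder, adjusted p = 0.734) and 10.6 ± 2.14 CPM (peat flame, adjusted p = 0.457; SD, n = 6 each), with 4 of 6 hearts above every saline heart in each.

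Il1rap, which also serves the IL-1 and IL-33 receptors, measured 5.5 to 8.82 CPM (median 6.64) in saline hearts, 7.89 to 18.5 CPM (median 9.98) after red oak flame and 9.44 to 13.5 CPM (median 11.8) after peat smolder. The peat smolder hearts did not overlap with saline (log2 0.76, SE 0.20, adjusted p = 0.032), while 4 of 6 red oak flame hearts lay above it (log2 0.69, SE 0.20, adjusted p = 0.0264). Without red oak flame replicate 2, the highest heart, the difference was 0.48 with an adjusted p of 0.137. Il17rd, known as Sef, which dampens growth factor signalling, was at 3.1 to 5.91 CPM in saline and 5.02 to 9.3 CPM after red oak flame (log2 0.69, SE 0.19, adjusted p = 0.0154). After peat flame Il17rd read 5.12 to 7.51 CPM, with a log2 difference of 0.67 and an adjusted p of 0.221.

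When 1 of the 12 hearts of a comparison was left out in turn, the red oak flame calls of Il1rl2 and Il17rd held in 12 of 12 fits and that of Il1rap in 8, not without red oak flame replicate 2 or 4 or saline replicate 1 or 4. The peat smolder call of Il1rl2 held in 6 of 12 fits, not without peat smolder replicate 1, 2 or 3 or saline replicate 1, 4 or 6 (adjusted p 0.0506 to 0.0751). That of Il1rap held in 4, not without peat smolder replicate 1, 3, 4 or 6 or saline replicate 1, 3, 4 or 5 (adjusted p 0.0501 to 0.0785). A list of 6 monocyte genes summed to 61.6 to 149.7 CPM in saline hearts, 103.8 to 188.9 CPM after red oak flame and 107.3 to 183.2 CPM after peat smolder. A list of 5 heart muscle genes summed to 37900 to 45600 CPM in saline hearts, 24300 to 38000 CPM after red oak flame and 30900 to 37700 CPM after peat smolder, where all 6 hearts lay below saline. The part of either list in these differences was not tested. Among the other pathway genes, Irak3 (log2 0.73) and Stat3 (0.44) rose after red oak flame, 2 of 29 tested beside 5.33% of all genes. After peat smolder 2 of 29 rose beside 2.39%, Stat2 (0.83) among them.

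**Figure D5:**
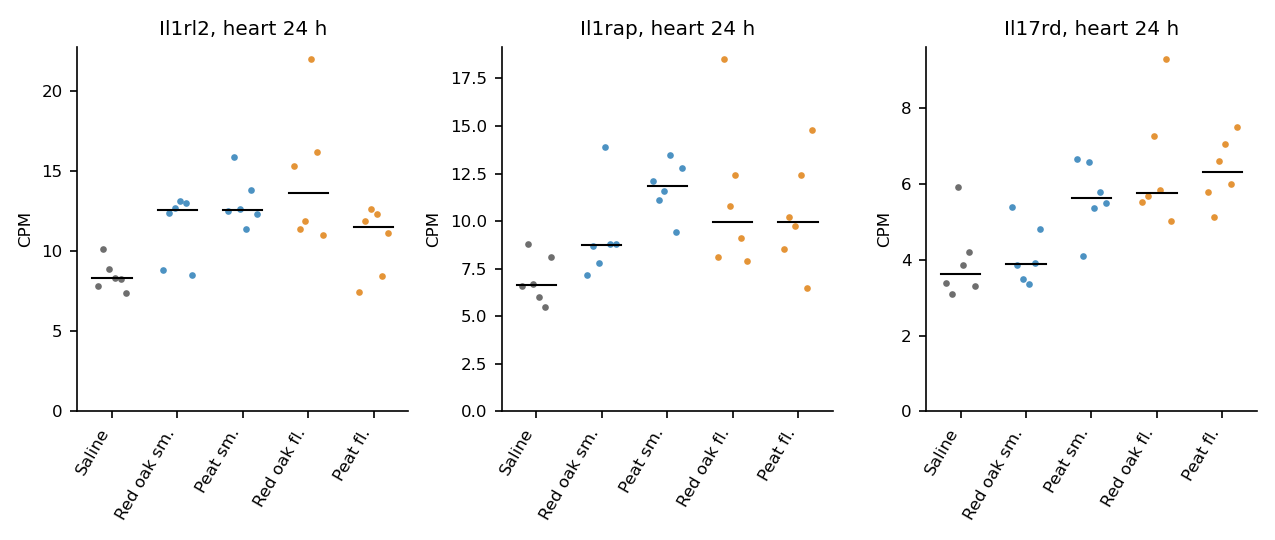
Il1rl2, Il1rap and Il17rd in CPM in each heart library at 24 h, for saline and 4 smokes with 6 animals each, with 1 point per animal and a bar at the group median (sm., smoldering; fl., flaming). Il1rl2 is above every saline value in all hearts of red oak flame and peat smolder, and Il1rap in all hearts of peat smolder.

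The same saline animals at 24 h allowed heart to be set against lung, 6 libraries each in a joint fit of 29 testable members. Of these, 20 were lower in heart and 3 higher, where 41.7% of all genes were lower and 34.8% higher. The median log2 difference was -1.44 over the members and -0.19 over all genes. Il18r1, the binding chain of the IL-18 receptor, was at 2.76 ± 1.21 CPM in heart and 178 ± 42.1 CPM in lung (SD, n = 6 each; log2 -6.00, adjusted p = 8.15e-10). Il34 was at 18.7 ± 4.66 and 292 ± 169 CPM (log2 -3.96), and Il6ra, the binding chain of the IL-6 receptor, at 0.139 ± 0.258 and 8.09 ± 4.08 CPM (log2 -5.73). For all 3, every heart lay below every lung. Il2ra (log2 -5.46), Il17re, the receptor of IL-17C (-3.63), and Il4i1 (-3.53) were also lower. The 3 chains higher in heart, named after their values were seen, were Il15ra (50.9 ± 7.84 against 14.4 ± 4.42 CPM, log2 1.82), Il13ra1 (log2 3.18) and Il10rb (log2 1.09).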

How the data were processed

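Per the labels' protocols, whole lung and heart RNA was measured; they name the probe assay TempO-Seq and also a QuantSeq library kit, so the chemistry is unclear. The deposited table holds raw counts per numbered row (read as probes from their names) and library; per the submitters' processing notes, Bowtie and DESeq2 were used. For the versions and the genome build the entry is: not given in the sources used here. Probe rows were summed per symbol. Groups were read from the labels, and replicates are separate animals; the members and all gene lists were chosen with earlier results of these data known.

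Counts were fitted with edgeR 4.0.16 in R 4.3.3 (filterByExpr, TMM, trended dispersion, robust quasi-likelihood test): 140 lung libraries in 1 fit with group and plate terms, 30 hearts in another, and saline hearts against lungs of the same animals in a further fit. CPM values are scaled by TMM, log2 differences are edgeR's, and p-values were adjusted by the Benjamini-Hochberg method over all genes tested. SEs were derived from the F statistic. The text names Il6, Il1b and Il1r2; the called members of the smallest p, up to 10 ligands and 10 receptors under LPS at each time and 6 elsewhere; up to 3 of the smallest p where none was called; the 5 ligands and 5 receptors of the highest saline mean; and up to 6 called pathway genes per comparison. A pathway gene that the counts include is not reported here by name. Alternatives were DESeq2 1.42.0, its size factors, no filter beyond 1 count, no plate term, each time alone, each probe alone, each replicate left out, and no libraries of few detected genes. Intervals of ratios and totals cover counting error only. Fits of the 4 h lungs and of the hearts were run on simulated counts without a plate effect, in which only better expressed genes were changed. The fit of all 140 lungs was not checked in this way. No 2 libraries of a group held the same values. Il6, Il1b and Il1r2 relations used permutation tests with 100000 resamples.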

Additional observations from a re-analysis of the deposited data

Results flagged for a closer look

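Within groups of 4 to 10 animals, a value was marked where its gap to the next animal was large for the group's range by Dixon's test. Among such groups with a mean of at least 1 CPM, 28 (20.4%) held one, and chance marks about 1 in 20. Of the 28, 21 were in the 49 smoke groups at 24 h. Those groups are of members called for a difference among the smokes, which can rest on single high values. Of the 21, 12 were in the 6 libraries of few detected genes. All 28 were the highest value of their group, and all are CPM values.

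In lung at 4 h these were Il6 in saline replicate 6 at 7.31, Il1r2 and Il1f9 in PeatFlame replicate 3 at 23.5 and 71.8, and Il10rb in EucalyptusFlame replicate 3 at 146. At 24 h LPS replicate 2 stood apart for Il27 at 50.5 and for Il24 at 9.73, and saline replicate 2 for Il2rb at 22.5.

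Among smoke lungs at 24 h, Il2rb stood apart in RedOakFlame replicate 6 at 297, EucalyptusSmolder replicate 5 at 53.9, PineFlame replicate 6 at 19.7 and EucalyptusFlame replicate 5 at 70.4. Il34 did so in RedOakFlame replicate 6 at 1770, PineFlame replicate 6 at 1120, PineNeedlesSmolder replicate 2 at 638 and PeatSmolder replicate 1 at 470. Il20rb did so in PineFlame replicate 6 at 4.73, EucalyptusFlame replicate 5 at 9.81 and EucalyptusSmolder replicate 4 at 9.44, and Il2ra in PineFlame replicate 6 at 31.3.

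Il17b had a value apart in 9 of the 10 smokes at 24 h. These were RedOakFlame replicate 6 at 756, EucalyptusSmolder replicate 6 at 99.4, PineNeedlesSmolder replicate 2 at 59.2, PineSmolder replicate 2 at 32.3, PeatSmolder replicate 3 at 32.1, RedOakSmolder replicate 6 at 29.2, EucalyptusFlame replicate 5 at 14.3, PineNeedlesFlame replicate 4 at 6.73 and PineFlame replicate 6 at 3.94.

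The difference between flaming and smoldering varied among the 5 fuels at 24 h for Il2rb (adjusted p = 0.000468, edgeR interaction test), Il17b (0.000923), Il34 (0.0111), Il1rapl1 (0.0205) and Il2ra (0.0291). None of the 5 was called without the libraries of few detected genes.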

How the results depend on the processing

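Counts of called members with 1 animal left out in turn ran from 15 to 18 for LPS at 4 h, 17 to 20 for LPS at 24 h, and 23 to 25 for heart against lung. Without 1 saline animal, the pairs called ran from 0 (without replicate 3) to 2 in lung at 24 h and from 2 (without replicate 1 or 4) to 5 in heart. Heart and lung came from the same animals by the animal numbers in the labels, and the fit with a replicate block for animal called 24 members, 23 of them also called without it, and changed no named call.

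Within plate 2 alone, an alternative chosen after seeing the data as was leaving out a fuel, LPS at 24 h gave 13 calls. For single smokes at 4 h, DESeq2 and each probe alone gave 1 pair, that time alone 5, and leaving out libraries of few detected genes 2. At 24 h that time alone gave 0 pairs. For flaming against smoldering at 4 h, DESeq2 and the fit without pine needles gave 1, that time alone 6, and the fit without libraries of few detected genes 5. The same exclusion gave 1 call for the LPS effect at 24 h minus 4 h. For any difference among smokes at 4 h, DESeq2, its size factors, each probe alone, every gene with at least 1 count and no plate term gave 1 each, and that time alone and the exclusion 4 each. At 24 h each probe alone gave 8 and that time alone 2. For heart against lung, every gene with at least 1 count gave 36. The cause of these changes was not tested.

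Il2rb under red oak flame at 24 h turned from 2.58 to -0.53 without replicate 6 and to -0.54 without the libraries of few detected genes, and over all fits without 1 animal it ran from -0.53 to 3.12. Of 1000 named values under alternatives, 911 kept direction and call, 81 lost the call, 6 gained one and 2 reversed. DESeq2's size factors moved the member median by -0.13 for LPS at 24 h minus 4 h, 0.16 and -0.12 for pine needles flame at 24 h and 4 h, and 0.13 for red oak smolder at 24 h, and no called member changed sign. Il23a, Il24 and Il10 had at most 3 counts in a saline lung group, near the limit of this depth.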
